A study of Mus musculus with 2 samples.

Results

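Itaconate synthesis and the Krebs cycle were examined through 9 genes: Irg1, which makes itaconate, and the cycle enzymes Cs, Aco1, Idh1, Idh2, Idh3a, Ogdh, Fh1 and Mdh2. Of these, Aco1 and Idh1 encode cytosolic forms that are counted here with the cycle enzymes. The mitochondrial aconitase is not among the 9 genes. They were chosen by symbol, and all 9 were found among the 16263 genes of the deposited tables and passed the filter on low values. The transcripts came from bone marrow-derived macrophages of C57BL/6 mice, 1 library from wild-type (WT) mice and 1 from mice of the genotype SIRPalpha-/- (SIRPα-KO), labelled as lacking SIRPα, a CD47-binding inhibitory receptor of myeloid cells. Marrow cells were cultured for 5 days with M-CSF, the macrophage growth factor, and both groups were then given interferon-γ (20 ng/ml) and LPS (100 ng/ml) for 6 h together with the reagent labelled mCD47.ex. Each library was made from the mixed cells of 5 mice, so individual mice cannot be separated, and untreated cells were not analysed here. With 1 library per genotype there is no replicate error, and every difference below describes these 2 libraries.

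The Krebs cycle oxidises acetyl groups in the mitochondrial matrix, through citrate, cis-aconitate, isocitrate, 2-oxoglutarate, succinate, fumarate and malate. Irg1 (now named Acod1) encodes the enzyme that removes a carboxyl group from cis-aconitate and so diverts it to itaconate. Macrophages induce this gene strongly after LPS and interferon. Itaconate is known to inhibit succinate dehydrogenase and to modify KEAP1, which releases the antioxidant regulator NRF2.

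Irg1 was very abundant in both libraries and lower in SIRPα-KO, and the cycle enzymes were far less abundant. Idh2 was lower by 1.58-fold and Idh1 higher by 1.5-fold, and the log2 ratios of the other 6 enzymes lay between -0.11 and 0.26. Levels are given in FPKM (a read measure divided by transcript length and by library size), so that genes of different length can be compared. Irg1 was at 2905 FPKM in the WT library and 1797 FPKM in the SIRPα-KO one, which is lower by 1.62-fold. The 8 cycle enzymes together summed to 111 FPKM in the WT library and 121 FPKM in the SIRPα-KO one. The ratio of Irg1 to that sum was therefore 26.3 in WT and 14.8 in SIRPα-KO. Among the enzymes, Idh1 and Idh2 stood in opposite order in the libraries, with Idh2 the higher in WT and Idh1 the higher in SIRPα-KO.

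The ratio between libraries was computed as the difference of log2(FPKM + 1), which understates differences of low genes, and a gene was called at a difference of 2-fold or more. Genes with at least 1 FPKM in either library are described as detected. None of the 9 genes was called, 0 higher and 0 lower. Of 10092 detected genes, 3.43% were called higher and 4.30% lower in SIRPα-KO, together 7.73%. These shares are the background for every count of calls below, and 1 call in a short list is not far from them. The median log2 ratio of the 9 genes was 0.25, with 6 above and 3 below 0, and that of all 10092 genes was 0.06. Of the 9 genes, 6 lay between the quartiles of all genes (-0.22 and 0.32). Housekeeping genes such as B2m (log2 ratio -0.08), Actb (0.40) and Rpl13a (-0.43) together spanned -0.43 to 0.46, a range that held 6 of the 9 genes. Irg1 and Idh2 lay below it and Idh1 just above.

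Some facts of the libraries bear on all of these values. The depth, estimated from the steps between low values, was about 11250000 reads for WT and 11050000 for SIRPα-KO. Sirpa, the targeted gene, was at 154 and 71.5 FPKM, so the library labelled SIRPα-KO still held reads of this gene. Gene-level values cannot tell if those reads stem from an intact transcript. Xist, the RNA of the inactive X chromosome, was at 47.5 and 0.910 FPKM, and the Y-linked gene Ddx3y was at 0 for WT and at 11.6 FPKM for SIRPα-KO. Genotype and the sex of the pooled mice cannot be told apart. Macrophage markers were abundant in both libraries (10 of 10 detected, summing to 11259 and 11038 FPKM), among them Lyz2, a lysozyme of myeloid cells, at 7106 and 7208 FPKM.

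Irg1 (gene number 16365, chromosome 14) ranked 8th of 16263 genes in WT and 20th in SIRPα-KO, and it made up 0.654% and 0.414% of all FPKM. Its log2 ratio was -0.69, and 7.97% of the 10092 genes had a lower one. Its values stand for about 85715 and 52071 reads, so counting error is small beside the difference. An approximate 95% interval from read counting alone placed the WT to SIRPα-KO fold between 1.60 and 1.63. This interval says nothing about variation between mice or cultures. Of 55 genes with a mean of at least 1000 FPKM, 4 had a lower ratio than Irg1, and the median log2 ratio of all 55 was -0.01.

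The promoter of Irg1 is printed beside that of Cs, the most abundant of the 8 cycle enzymes, because the level of Irg1 was 63.2 times that of Cs in WT and 32.5 times in SIRPα-KO. Both are the 250 bases before the annotated start, from RefSeq on GRCm38.p6. Irg1 lies at chr14:103046762-103047011 (+ strand) and Cs at chr10:128337477-128337726 (+ strand). Capitals mark matches to TATAAA and GGAAATTCC in Irg1 and to GGGCGG (the GC box) on either strand in Cs.
Irg1: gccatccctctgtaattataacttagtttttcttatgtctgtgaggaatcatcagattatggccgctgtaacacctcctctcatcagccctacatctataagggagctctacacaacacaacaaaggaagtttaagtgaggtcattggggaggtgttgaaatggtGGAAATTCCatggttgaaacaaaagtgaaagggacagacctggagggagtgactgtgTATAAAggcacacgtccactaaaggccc
Cs: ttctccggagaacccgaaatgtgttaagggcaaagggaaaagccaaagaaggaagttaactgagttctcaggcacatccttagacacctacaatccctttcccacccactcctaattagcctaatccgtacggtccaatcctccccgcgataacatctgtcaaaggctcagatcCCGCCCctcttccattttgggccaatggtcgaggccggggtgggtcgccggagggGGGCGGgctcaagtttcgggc

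The motif TATAAA, the core of a TATA box, begins 28 bases before the start of Irg1, and 12.4% of 32851 promoters of this length hold it on either strand. GGAAATTCC, which resembles sites of the inflammatory factor NF-κB and was picked after the sequence had been read, begins 85 bases before the start and occurs in 0.286% of promoters. Neither the interferon-stimulated response element, searched as GAAANNGAA (7.13% of promoters) nor the GAS element TTCNNNGAA, bound by STAT proteins (7.02%), was found in this window. AANNGAAA, a shorter core that overlaps the first of these, matched 1 time in Irg1 and 1 time in Cs, and is held by 21.3% of promoters. The 13 promoters listed for 7 of the 8 cycle enzymes held neither TATAAA nor GGAAATTCC. GGAAATTCC was picked from Irg1 itself and both motifs are absent from most promoters, so this absence does not set the enzymes apart. GGGCGG was held by 9 of the 13, against 32.7% of all promoters. Of the 13, 6 are starts of Ogdh and 2 of Idh1, so they are not independent. Irg1 had 2 CpG pairs in its 250 bases, and these 13 promoters had 9 to 35, with both ends of that range in Ogdh. The median over all promoters was 6. These matches describe letters and not bound sites.

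Genes closest to Irg1 were sought by the distance over the pair of log2(FPKM + 1) values, that is over 2 libraries. The nearest was Ifit2, an interferon-induced antiviral protein, at 2647 FPKM in the WT library and 1483 FPKM in the SIRPα-KO one (distance 0.31). It was followed by AW112010 (2244 and 2073 FPKM), the chemokine Cxcl10 (2406 and 2283), the MHC class I molecule H2-D1 (2174 and 2141) and the lysosomal protein precursor Psap (2342 and 2336). Apart from Ifit2, with a log2 ratio of -0.84, these neighbours matched Irg1 in abundance more than in ratio, since theirs lay between -0.11 and 0.00.

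Among 15 other genes that interferon-γ and LPS are known to induce, 1 was called higher and 1 lower, with a median log2 ratio of 0.21. The higher gene was Il6, an inflammatory cytokine (93.6 FPKM in the WT library and 257 FPKM in the SIRPα-KO one). The lower was Saa3, an acute-phase protein (2531 and 570.3 FPKM). Nos2, the inducible nitric oxide synthase, had a log2 ratio of -0.60, close to that of Irg1 (-0.69), at 1336 and 880.0 FPKM. Nos2 was not alone among the 15 in lying this near to Irg1. Irf1, a transcription factor of the interferon response, was at 481 and 606 FPKM. Cxcl9 and Cxcl10, interferon-induced chemokines and the most abundant of the 15 by the mean of both libraries, were at 2187 and 3349.8 FPKM and at 2406 and 2283 FPKM. These genes shared no single direction, with 9 ratios above 0 and 6 below.

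**Figure D1:**
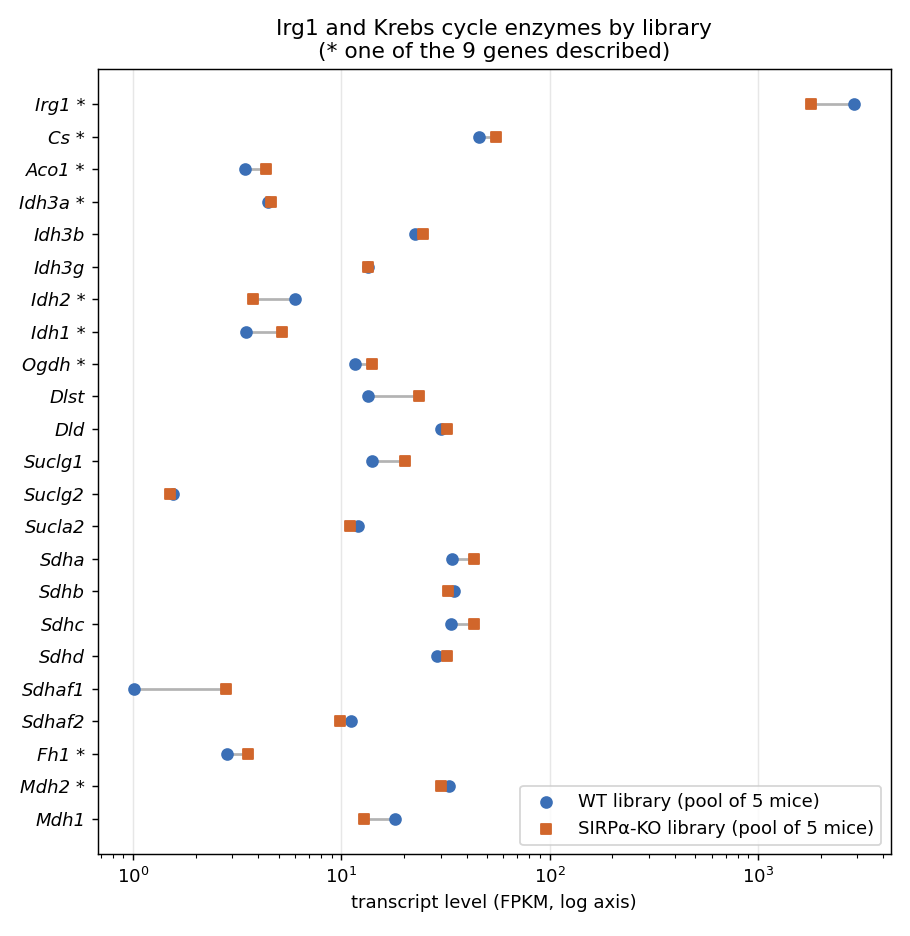
Transcript level in FPKM (log axis) of Irg1 and 22 Krebs cycle genes in the WT library (circles) and the SIRPα-KO library (squares), with a line joining both values of a gene. The 22 include the cytosolic forms Aco1, Idh1 and Mdh1 and the assembly factors Sdhaf1 and Sdhaf2. Irg1 sits at 2905 and 1797 FPKM, and no cycle gene exceeds 55.3 FPKM.

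Cs, citrate synthase, which joins acetyl-CoA to oxaloacetate, was at 46.0 FPKM in the WT library and 55.3 FPKM in the SIRPα-KO one (log2 ratio 0.26). It was the most abundant of the 8 cycle enzymes in each library.

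Aco1, the cytosolic aconitase that becomes an iron-responsive RNA-binding protein when it loses its iron-sulphur cluster, was at 3.47 FPKM in the WT library and 4.36 FPKM in the SIRPα-KO one. Its counting interval for the SIRPα-KO to WT fold, 1.01 to 1.57, reached almost to equality. Of 11 genes of iron regulation, 0 were called higher and 1 lower (4.30% lower over all genes), and their median log2 ratio was 0.09. The lower gene was Alas1, the first enzyme of heme synthesis (114 and 42.8 FPKM). The ferritin chain Fth1, a target of iron-responsive RNA binding, was at 13750.3 and 9024 FPKM, and Ftl1, the other chain, at 1779 and 1929 FPKM.

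The isocitrate dehydrogenases differed in direction. Idh1, the cytosolic NADP-dependent form, was at 3.48 FPKM in the WT library and 5.22 FPKM in the SIRPα-KO one, with a log2 ratio of 0.47. Idh2, its mitochondrial counterpart, was at 5.97 and 3.78 FPKM, with a log2 ratio of -0.54. The Idh1 to Idh2 ratio was 0.583 in WT and 1.38 in SIRPα-KO, while their sum was 9.45 and 9.0 FPKM. Neither gene reached 2-fold alone, and 84.4% of the 10092 genes had a lower ratio than Idh1 and 11.3% a lower one than Idh2.

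Counting error limits the precision of both, since the values stand for about 90 and 132 reads of Idh1 and 117 and 73 reads of Idh2. The approximate counting interval of the SIRPα-KO to WT fold was 1.13 to 1.97 for Idh1 and 0.468 to 0.858 for Idh2, and neither interval contained 1. No 50-base word of either gene occurred in another annotated gene, so they share no sequence of that length with each other. Without a second library per genotype the exchange of rank has no replicate check.

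**Figure D2:**
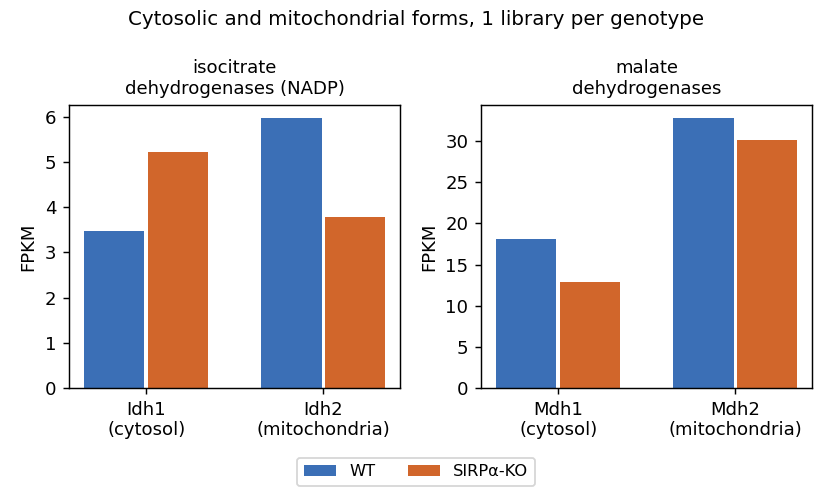
FPKM of the cytosolic and mitochondrial forms of NADP-dependent isocitrate dehydrogenase and of malate dehydrogenase, as bars for the single WT and SIRPα-KO libraries. Idh1 and Idh2 exchange order between the libraries, whereas Mdh2 stays above Mdh1.

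Idh3a, the catalytic subunit of the NAD-dependent isocitrate dehydrogenase of the cycle, was at 4.47 FPKM in the WT library and 4.60 FPKM in the SIRPα-KO one (log2 ratio 0.03). The counting interval of its SIRPα-KO to WT fold, 0.792 to 1.33 from about 121 and 122 reads, contained equality. The partner subunits of Idh3a were more abundant in both libraries, Idh3b at 22.5 and 24.8 FPKM and Idh3g at 13.4 and 13.4 FPKM. Idh3b exceeded Idh3a by 5.03-fold and 5.39-fold, and Idh3g exceeded it by 2.99-fold and 2.91-fold. The unequal subunit levels were thus alike in the 2 libraries. Idh3b overlaps Nop56 on the opposite strand (6.45 and 11.8 FPKM), and whether strand was used in counting is not given in the sources used here.

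Ogdh, the first subunit of the 2-oxoglutarate dehydrogenase complex, which feeds succinyl-CoA into the cycle, was at 11.7 FPKM in the WT library and 14.1 FPKM in the SIRPα-KO one (log2 ratio 0.25). Dlst, the second subunit, was at 13.5 and 23.7 FPKM, a log2 ratio of 0.77 that stayed short of 2-fold. Dld, the third subunit, which is shared with pyruvate dehydrogenase, was at 30.2 and 32.1 FPKM. All 3 subunits had ratios above 0, of unequal size.

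Fh1, fumarase, which turns fumarate into malate, was the least abundant of the 9 genes in both libraries, at 2.82 FPKM in the WT library and 3.57 FPKM in the SIRPα-KO one. Its counting interval, 0.936 to 1.70, contained equality. Mdh2, the mitochondrial malate dehydrogenase that regenerates oxaloacetate, was at 32.8 and 30.2 FPKM (log2 ratio -0.11). Its interval of 0.817 to 1.05 contained equality too. Mdh1, the cytosolic form, was at 18.1 and 12.9 FPKM (log2 ratio -0.45), so the Mdh2 to Mdh1 ratio was 1.81 in WT and 2.34 in SIRPα-KO.

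In order of level, Irg1, Cs, Mdh2 and Ogdh held the first 4 places among the 9 genes in both libraries. Below them Idh2, Idh3a, Idh1, Aco1 and Fh1 lay between 2.82 and 5.97 FPKM in WT, and the same 5 genes in SIRPα-KO lay between 3.57 and 5.22 FPKM. With no replicates, the order among these 5 cannot be set against a spread.

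**Figure D3:**
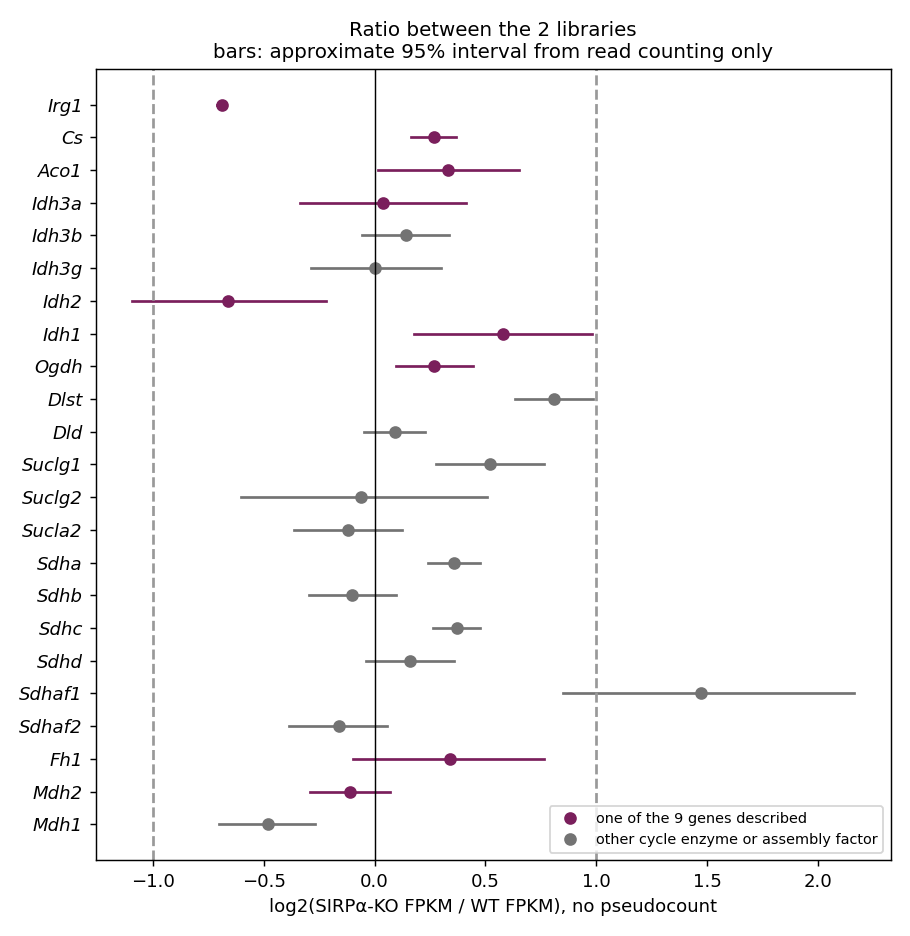
Log2 of the SIRPα-KO to WT FPKM ratio without pseudocount for Irg1 and 22 cycle genes (points), with approximate 95% intervals from read counting only (bars) and dashed lines at 2-fold. Irg1 at -0.69 lies below every cycle gene, Idh2 at -0.66 is the nearest, and Sdhaf1 at 1.47 is past 2-fold on this scale.

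Of 14 further cycle genes, 0 were called higher and 0 lower, with 9 ratios above 0 and 5 below and a median of 0.11. Counted among them are the cytosolic Mdh1 and the succinate dehydrogenase assembly factors Sdhaf1 and Sdhaf2. Sdha, the flavoprotein of succinate dehydrogenase and of respiratory complex II, which itaconate inhibits, was at 33.95 FPKM in the WT library and 43.4 FPKM in the SIRPα-KO one. Sdhb was at 34.8 and 32.6 FPKM, Sdhc at 33.5 and 43.3 FPKM, and Sdhd at 28.7 and 32.05 FPKM. Sdhaf1, an assembly factor of that complex, was at 1.01 and 2.79 FPKM, with a log2 ratio of 0.92 on the log2(FPKM + 1) scale from about 28 and 77 reads. It overlaps E130208F15Rik on the opposite strand, a gene without a value here, and whether strand was used in counting is not given.

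Suclg1, the shared subunit of succinyl-CoA synthetase, was at 14.1 FPKM in the WT library and 20.3 FPKM in the SIRPα-KO one. The ATP-forming partner Sucla2 was at 11.97 and 10.99 FPKM and the GTP-forming partner Suclg2 at 1.56 and 1.5 FPKM. Suclg2 shares 19.1% of its 50-base words with Gm15163, so its level could be split between copies. Of the 9 genes, only Cs shared words with another gene, 4.0% with Csl, which is not analysed here. The relatives Ogdhl of Ogdh (0.0300 and 0.0300 FPKM) and Dhtkd1 (listed at 0 in both) were near 0, and Ldha, lactate dehydrogenase, was at 483 and 355 FPKM. All 22 cycle genes had a higher ratio than Irg1, whose log2 ratio was 0.84 below their median of 0.15 and 0.95 below that of the 8 enzymes. The order against Idh2 lay within counting error, since the interval of its fold, 0.468 to 0.858, contained that of Irg1, 0.612 to 0.625.

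Genes that feed the cycle or draw from it were mostly short of 2-fold. Of 11 detected genes of pyruvate entry 0 were called, and their median log2 ratio was 0.09. Mpc1, a subunit of the mitochondrial pyruvate carrier, was at 73.7 FPKM in the WT library and 88.3 FPKM in the SIRPα-KO one, and Pdk3, a kinase that turns pyruvate dehydrogenase off, at 33.2 and 29.5 FPKM. Pdha1, the X-linked catalytic subunit of pyruvate dehydrogenase, was at 11.2 and 21.5 FPKM, just short of 2-fold at a log2 ratio of 0.88. Pcx, pyruvate carboxylase, was at 0.0400 and 0.170 FPKM, below the filter.

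Among 9 detected genes that exchange intermediates with the cycle, 0 were called higher and 1 lower, with a median of 0.08. The lower gene was Ass1, argininosuccinate synthase, which joins aspartate to citrulline, at 163 FPKM in the WT library and 37.1 FPKM in the SIRPα-KO one (log2 ratio -2.11). Its partner Asl, which releases fumarate and arginine, was at 7.36 and 7.68 FPKM. Glud1, which turns glutamate into 2-oxoglutarate, was at 24.6 and 38.0 FPKM. Acly, which splits exported citrate, was at 17.7 and 25.6 FPKM. Of 6 detected mitochondrial carriers 0 were called, and the citrate carrier Slc25a1 was at 17.3 and 17.4 FPKM. Slc25a22, a glutamate carrier, was the most abundant, at 77.4 and 99.2 FPKM, followed by the aspartate-glutamate carrier Slc25a12 at 53.7 and 58.4 FPKM.

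Genes of itaconate breakdown spanned low to moderate levels. Of 8 listed, 5 passed the filter, 0 were called, and the median log2 ratio was -0.03. Clybl, the lyase that cleaves citramalyl-CoA, was at 1.72 FPKM in the WT library and 0.800 FPKM in the SIRPα-KO one, from about 24 and 11 reads. Of the listed succinyl-CoA synthetase subunits, Suclg1 (14.1 and 20.3 FPKM) and Sucla2 (11.97 and 10.99 FPKM) were well above Clybl. The subunit Suclg2 was low too, at 1.56 and 1.5 FPKM.

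Of 11 detected genes around NRF2 and other itaconate-responsive regulators, 0 were called higher and 1 lower (4.30% lower over all genes). Their median log2 ratio was -0.39, against 0.06 over all genes. Hmox1, heme oxygenase 1, was the lower gene, at 117 FPKM in the WT library and 26.7 FPKM in the SIRPα-KO one. Gclm, the modifier subunit of glutathione synthesis, was at 14.3 and 7.42 FPKM and Srxn1, a sulfiredoxin, at 18.3 and 10.3 FPKM, both short of 2-fold. Nfe2l2, which encodes NRF2, was at 146 and 111 FPKM, and Keap1, its inhibitor, at 37.1 and 44.9 FPKM. Atf3, a stress factor that itaconate is known to induce, was at 260.5 and 179 FPKM. The list was uneven, with 7 ratios below 0 and 4 above, and Gclc and Slc7a11, also NRF2 targets, were among the latter (2.02 and 2.98 FPKM, and 22.6 and 24.3 FPKM).

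**Figure D4:**
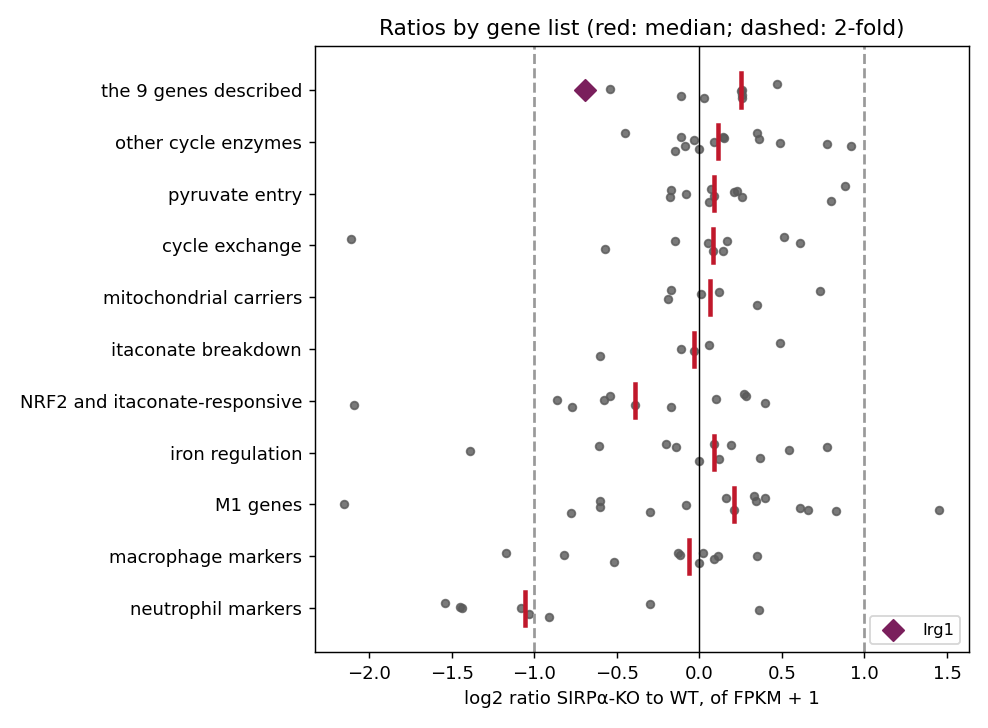
Log2 ratio of SIRPα-KO to WT on the log2(FPKM + 1) scale for the detected genes of 11 lists (points), with each list's median (red) and 2-fold limits (dashed). Irg1 (diamond) lies at -0.69 left of all cycle genes, and the neutrophil markers have the lowest median at -1.06.

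Of the marker lists of other cell types, those of neutrophils and of lymphoid cells were mostly lower in SIRPα-KO, as Irg1 was. The lymphoid list had only 4 detected genes, at low levels. Neutrophils also express Irg1 when activated. Of 8 detected neutrophil markers 5 were called lower and 0 higher, against 4.30% lower and 3.43% higher over all genes. The sum of the 8 markers was 423 FPKM in the WT library and 195 FPKM in the SIRPα-KO one. S100a9, a granulocyte and monocyte calcium-binding protein, was at 202 and 98.1 FPKM, its partner S100a8 at 133 and 62.6 FPKM, and the granule protein Ngp at 68.8 and 24.7 FPKM. The precursor genes Camp (5.59 and 1.41 FPKM) and Elane (3.36 and 0.5 FPKM) were the other called markers. Elane and another marker that was not called passed the filter through the WT library alone, which favours a lower ratio. Mpo, myeloperoxidase of granulocyte precursors, lay the other way at 2.38 and 3.34 FPKM (log2 ratio 0.36, counting interval of the SIRPα-KO to WT fold 1.02 to 1.90). The list ranged from 2.38 to 202 FPKM in WT and from 0.5 to 98.1 FPKM in SIRPα-KO, and Retnlg, a further marker, was at 0.460 FPKM and listed at 0. The part of these cells in the Irg1 difference was not tested, and in bulk RNA fewer cells of a type and less RNA per cell cannot be told apart.

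Among 10 macrophage markers 1 was called lower, Csf1r, the receptor of M-CSF (248 and 109.8 FPKM), and 0 higher, with a median of -0.06. Mpeg1, perforin-2, was at 1056 and 1137 FPKM. Of 6 detected dendritic cell markers 2 were called higher and 1 lower, against 3.43% and 4.30% over all genes. The 6 markers summed to 45.3 FPKM in the WT library and 50.3 FPKM in the SIRPα-KO one. The higher markers were the chemokine receptor Ccr7 (6.93 and 23.8 FPKM) and the peptidase Dpp4 (1.32 and 4.95 FPKM), and the lower was the integrin Itgax (27.7 and 12.1 FPKM). The dendritic cell receptor Cd209a was at 0.180 FPKM in the WT library and listed at 0 in the other. Lymphoid markers had 0 calls among 4 detected genes, with sums of 11.4 and 8.89 FPKM, and Cd3e was listed at 0 in WT. Of the 4, 3 had ratios below 0, and the median log2 ratio was -0.58. Cd3d, a chain of the T cell receptor complex, was at 6.29 and 6.79 FPKM and Cd79b, a chain of the B cell receptor complex, at 2.41 and 0.960 FPKM. Cd79a (1.69 and 0.620 FPKM) and Ms4a1 (1.04 and 0.520 FPKM) were lower as well. Like Cd79b, they passed the filter through the WT library alone. The part of any of these cells in the values of the cycle enzymes was not tested.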

How the data were processed

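RNA sequencing gave 1 table per library, and groups follow the genotype label. The authors deposited 1 value per gene, taken here as FPKM. The tables do not name the unit, and it was inferred from low values, of which 60.9% (WT) and 58.9% (SIRPα-KO) were within 0.15 of a whole read after scaling by transcript length, against 29.5% and 29.7% with lengths shuffled. These shares are too low to reconstruct read counts, and neither a count test nor a p-value was computed. The submitters' processing notes name mm9, R 3.3.3 and DESeq2 without a role. What aligned and counted the reads, and whether strand was used, is not given in the sources used here. Values of this kind depend on the transcript lengths used and on how reads of similar genes were assigned.

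Log2 ratios used a pseudocount of 1 on genes with at least 1 FPKM in a library, with a call at 2-fold. The analysis used Python 3.11.15, numpy 2.4.6, pandas 2.3.3 and scipy 1.17.1, and was tested on simulated data. Counting intervals are exact (Clopper-Pearson, 95%) from approximate reads (FPKM times mean length of the RefSeq transcripts in GENCODE mouse release 21 times estimated depth), apply to the ratio without pseudocount, and cover counting error only. GRCm38, a later assembly than mm9, served only for chromosome names, sequence and overlaps.

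The 9 genes and the gene lists were chosen with earlier results of these data known, and some genes of the lists are not reported here. Named were all 9 genes, from each list the called genes and the most abundant ones, near copies, and the 5 genes nearest to Irg1. Other cycle genes and list members were named after their values were seen. Alternatives were another pseudocount, other filters, other scalings and another fold limit.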

Additional observations from a re-analysis of the deposited data

How the results depend on the processing

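With 1 library per genotype no replicate could be left out, and no paired analysis was possible because the groups hold 1 library each. Scaling by the median of ratios or by the trimmed mean shifted the log2 scale by -0.07, less for low genes because of the pseudocount, and gave Irg1 -0.76 in both cases. The sign of Idh3a turned from 0.03 to -0.02 under both scalings, and no other of the 9 genes changed sign under any of the 6 alternatives. Only the scalings could change a sign. The filters and the fold limit do not enter a gene's ratio, and a pseudocount keeps its sign. The gap between Irg1 and the median of the 8 enzymes stayed between -0.96 and -0.95. A scaling nearly cancels in this gap and the fold limit does not enter it, so most alternatives could hardly move it. With a call at 1.5-fold, 1 of the 9 genes was called lower, Irg1, and over all genes 1103 were called higher and 1032 lower. Without pseudocount, Idh2 was lower by 1.58-fold and Idh1 higher by 1.5-fold. The pseudocount of 1 kept their log2 ratios (-0.54 and 0.47) short of the 1.5-fold limit. With a pseudocount of 0.1 and the 2-fold limit, 589 of all genes were called higher and 676 lower. Aco1, Idh3a and Fh1 gave no value with a minimum of 5 FPKM. Depth limits Fh1, Idh1, Idh2 and Idh3a most, with about 73 to 132 reads each.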
